A study of Mus musculus with 9 samples.

Results

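The 8 genes described here, which the peroxisome proliferator-activated receptors (PPARs) switch on in the fasted state, were followed through 9 mouse heart RNA libraries: Pdk4, Ucp2, Ucp3, Angptl4, Acot1, Acot2, Plin2 and Plin5. They were taken by symbol from a table of 55401 Ensembl genes, and all 8 were among the 19091 genes with enough counts to be tested. The hearts came from C57BL/6 mice in groups of 3 libraries. The Ctrl group received PBS, the AngII group received angiotensin II (Ang II), a hormone that constricts vessels and drives growth of the heart, and the Kmo_AngII group also received Ang II and carried the word Kmo in its description. The sources used here do not say what Kmo stands for there, nor give the sex, age, dose, route or length of treatment. The sample titles begin with the letters WC, WA or KKA, 3 libraries each. These letters cross the treatment labels: Ctrl replicate 1 and AngII replicates 1 and 2 are WC, Ctrl replicates 2 and 3 and AngII replicate 3 are WA, and all Kmo_AngII libraries are KKA. Both groupings are reported, and no library was moved. The sources used here do not settle whether the label or the title letters give a heart's treatment: 4 libraries (Ctrl replicates 2 and 3 and AngII replicates 1 and 2) carry the letters of the other group's remaining library, and exchanged Ctrl and AngII labels cannot be told apart from a labelling that is right. Every difference by treatment label below is therefore between libraries as labelled, and WA minus WC could itself be a treatment difference. The labels do not say that the libraries came from separate animals, so p-values measure the spread between these libraries, which may be partly technical.

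PPARs are nuclear receptors that bind fatty acids and, paired with a retinoid X receptor, sit on repeats of the bases AGGTCA near their target genes. The heart draws most of its energy from fatty acids, and in fasting the rise of circulating fatty acids turns on genes that spare glucose, limit lipoprotein uptake, hold fat in droplets and free the acyl chains inside mitochondria. Several of these genes also answer to glucocorticoids and to FOXO factors, so their level does not read out PPAR activity alone.

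Library totals ran from 56827533 to 73194268 counts. The first principal component held 30.4% of the variance and separated 4 libraries (Ctrl replicates 2 and 3, AngII replicate 3 and Kmo_AngII replicate 1) from the other 5. The actin gene Acta1 was at 617 to 686 CPM (counts scaled to library sizes that the TMM method had corrected) in those 4 and at 11.3 to 39.6 CPM in the other 5. By title letters, the gene Nppa was at 603 to 1222 CPM in WA, 48.0 to 114 CPM in WC and 121 to 1186 CPM in KKA. On the second component, with 17.9%, Kmo_AngII replicate 3 and Ctrl replicate 2 stood apart. All 10 cardiomyocyte markers were detected in every library, and their summed level was lowest, at 20183 CPM, in Kmo_AngII replicate 3 and highest, at 55612 CPM, in Ctrl replicate 3. White adipocyte markers summed to 68.6 CPM in Kmo_AngII replicate 3, 11.97 CPM in Ctrl replicate 2 and 0.371 to 2.81 CPM elsewhere. Fibroblast markers summed to 1505 CPM in Kmo_AngII replicate 3 and 420 to 614 CPM elsewhere. Epicardial and mesothelial markers summed to 78.0 CPM in that library and 4.01 to 15.5 CPM elsewhere. Relative to their mean, atrial muscle markers were at log2 6.81 in Kmo_AngII replicate 3, 2.78 in Ctrl replicate 2 and -2.2 to -0.42 elsewhere. These are whole tissue samples, in which fewer cells of a type and less RNA per cell cannot be told apart.

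The stretches just upstream of 4 members are shown: those that held the bases AGGTCA or their reverse complement (Ucp3, Plin2 and Plin5) and Pdk4, which held none. The choice therefore favours members with a match. Levels of these 4 ordered the libraries in partly different ways. Pdk4 and Plin5 were high in much the same libraries, and Ucp3 was not. Plin2 shared with Pdk4 and Plin5 high levels in Kmo_AngII replicate 1 and Ctrl replicate 3, but AngII replicate 3 was only at rank 6 of 9 for it. RefSeq tables hold an upstream entry for 7 of the 8 members, all but Angptl4. Each stretch is the 250 bases before the transcription start, 5′ to 3′ on the gene's own strand, on build GRCm38.p6. Capitals mark the PPAR core sequence, AGGTCA or its reverse complement TGACCT.
Pdk4 (chr6:5496279-5496528, minus strand): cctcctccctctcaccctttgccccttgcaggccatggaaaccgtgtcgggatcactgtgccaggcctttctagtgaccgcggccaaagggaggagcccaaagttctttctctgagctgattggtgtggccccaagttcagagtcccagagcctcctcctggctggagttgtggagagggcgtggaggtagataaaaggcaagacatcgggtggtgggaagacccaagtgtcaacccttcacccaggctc
Plin2 (chr4:86670060-86670309, minus strand): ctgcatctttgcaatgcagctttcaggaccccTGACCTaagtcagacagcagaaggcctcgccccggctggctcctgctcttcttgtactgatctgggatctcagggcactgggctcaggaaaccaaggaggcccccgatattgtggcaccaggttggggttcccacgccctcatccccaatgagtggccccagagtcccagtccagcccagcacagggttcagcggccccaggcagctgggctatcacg
Plin5 (chr17:56117549-56117798, minus strand): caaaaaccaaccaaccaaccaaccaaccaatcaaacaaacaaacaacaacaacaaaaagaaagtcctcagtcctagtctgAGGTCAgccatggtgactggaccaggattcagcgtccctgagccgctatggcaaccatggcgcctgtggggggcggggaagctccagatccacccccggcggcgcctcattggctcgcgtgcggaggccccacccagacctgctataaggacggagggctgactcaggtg
Ucp3 (chr7:100472741-100472990, plus strand): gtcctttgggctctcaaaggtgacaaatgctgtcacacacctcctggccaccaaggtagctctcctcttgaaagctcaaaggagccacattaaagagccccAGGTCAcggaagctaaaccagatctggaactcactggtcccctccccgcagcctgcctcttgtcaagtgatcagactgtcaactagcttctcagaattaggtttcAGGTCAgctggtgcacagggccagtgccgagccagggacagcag
Ucp3 held the core sequence AGGTCA at 149 to 144 and at 44 to 39 bases before its start. Plin5 has 2 entries, of which the one shown held 1 match at 170 to 165 bases before its start and the other (chr17:56117299-56117548) held none, and Plin2 held the reverse complement at 218 to 213 bases. The Pdk4 stretch, and those of Ucp2, Acot1 and Acot2, held none. AGGTCA is common: on either strand it occurred in 14% of 32851 RefSeq stretches of the same length. The full repeat AGGTCANAGGTCA (0.0335% of stretches), the oestrogen-related receptor site TCAAGGTCA (0.387%, a match to which is also a match to AGGTCA) and the FOXO site GTAAACA (3.17%) were in none of the 7. A match describes letters only, and a missing match says nothing of sites further away.

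Pdk4 encodes pyruvate dehydrogenase kinase 4, which turns off the enzyme complex that lets glucose carbon into the mitochondrial oxidation cycle. It stood at 14.5, 82.6 and 107 CPM in Ctrl replicates 1, 2 and 3. In the AngII libraries it stood at 49.6, 33.6 and 135 CPM, and in the Kmo_AngII libraries at 197, 65.9 and 21.6 CPM. It had the widest range of the 8 members, 13.6-fold between the highest and the lowest library, and each treatment group held both low and high values. Its mean (± SD, n = 3) was 68.1 ± 48.1 CPM with the Ctrl label, 72.8 ± 54.6 CPM with AngII and 94.7 ± 91.1 CPM with Kmo_AngII, so the 3 groups overlapped throughout. Its 4 highest libraries were the 4 with high Acta1.

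**Figure D1:**
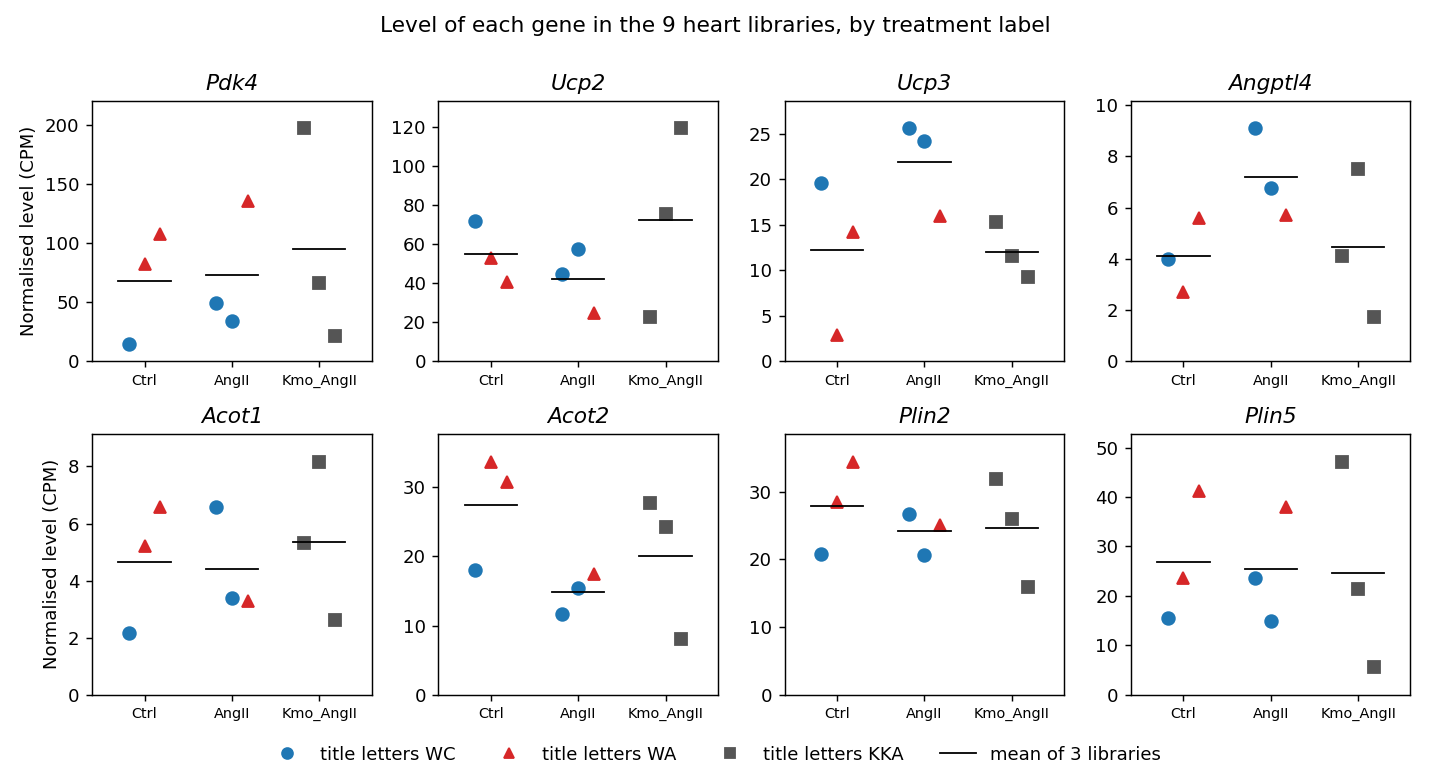
Normalised level in CPM (vertical axis from 0) of each gene in each library, by treatment label (horizontal axis), with symbols for the title letters and a line at the mean of 3 libraries. The WA triangles of Pdk4 (82.6 to 135 CPM) lie above its WC circles (14.5 to 49.6 CPM), while the treatment groups overlap. WA and WC did not overlap, in either direction, for 33.6% of all genes.

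The perilipins coat lipid droplets, Plin2 in most cells and Plin5 mainly in oxidative tissue such as heart, where it tethers droplets to mitochondria and holds back lipolysis. Plin5 stood at 15.6, 23.5 and 41.3 CPM in Ctrl, at 23.7, 14.9 and 38.0 CPM in AngII and at 47.1, 21.4 and 5.60 CPM in Kmo_AngII replicates 1, 2 and 3. Its 3 highest libraries (Kmo_AngII replicate 1, Ctrl replicate 3 and AngII replicate 3) were also the 3 highest of Pdk4, in another order. Plin2 was the steadiest member, at 20.7, 28.4 and 34.4 CPM in Ctrl, 26.7, 20.7 and 25.1 CPM in AngII and 31.9, 26.0 and 15.9 CPM in Kmo_AngII. Kmo_AngII replicate 3 was the lowest library for both perilipins, and it was also the one with the lowest cardiomyocyte markers. The same library was the highest for atrial muscle, epicardial and fibroblast markers. The part of cell content in these low values was not tested.

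Angptl4 encodes a secreted inhibitor of lipoprotein lipase, the enzyme that frees fatty acids from circulating lipoproteins at the capillary wall. It was low, with 88 to 772 counts per library. It stood at 4.004, 2.72 and 5.61 CPM in Ctrl, at 9.09, 6.78 and 5.72 CPM in AngII and at 4.12, 7.504 and 1.74 CPM in Kmo_AngII. The AngII libraries all lay above the Ctrl libraries, the nearest being 5.72 and 5.61 CPM, while the Kmo_AngII libraries spanned both groups. AngII and Ctrl did not overlap, in either direction, for 12.2% of all genes.

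The uncoupling proteins are carriers of the inner mitochondrial membrane, Ucp3 mainly in muscle and heart and Ucp2 widely, with much of it in immune cells. Ucp3 stood at 19.6, 2.91 and 14.3 CPM in Ctrl, at 25.6, 24.3 and 15.99 CPM in AngII and at 15.3, 11.6 and 9.31 CPM in Kmo_AngII. Its 3 highest libraries were the 3 WC libraries, and Ctrl replicate 2 was far below all others. Ucp2 stood at 71.9, 52.7 and 40.6 CPM in Ctrl, at 44.5, 57.5 and 24.5 CPM in AngII and at 22.8, 75.4 and 119 CPM in Kmo_AngII. Its order was close to the opposite of Plin5: its 3 lowest libraries were the 3 highest of Plin5, and its highest, Kmo_AngII replicate 3, was the lowest of Plin5. The 10 macrophage and monocyte markers were all detected in every library, and their sum was highest in the same libraries as Ucp2, at 370 CPM in Kmo_AngII replicate 3 and 337 CPM in Kmo_AngII replicate 2. The other 7 libraries had 148 to 213 CPM, and the part of immune cells in the Ucp2 levels was not tested. In the annotation Ucp2 overlaps Dnajb13 on the opposite strand and shares 2.75% of its 100-base transcript windows with it. Since the use of strand in counting is not given in the sources used here, some Ucp2 counts may belong to Dnajb13. The brown fat uncoupling gene Ucp1 was at 0 in 6 libraries and at no more than 0.197 CPM in the others, too low to be tested.

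Acot1 and Acot2 encode acyl-CoA thioesterases, which free fatty acids from coenzyme A, Acot1 in the cytosol and Acot2 in mitochondria. The 2 genes are near copies, so their counts are uncertain. The longest stretch that is identical in the coding sequences of Acot1-201 (bases 887 to 1159 of 1257) and Acot2-201 (bases 1010 to 1282 of 1359) in the GENCODE annotation has 273 bases, and it is printed to show how far reads from one could be assigned to the other.
Acot1 and Acot2, shared coding stretch: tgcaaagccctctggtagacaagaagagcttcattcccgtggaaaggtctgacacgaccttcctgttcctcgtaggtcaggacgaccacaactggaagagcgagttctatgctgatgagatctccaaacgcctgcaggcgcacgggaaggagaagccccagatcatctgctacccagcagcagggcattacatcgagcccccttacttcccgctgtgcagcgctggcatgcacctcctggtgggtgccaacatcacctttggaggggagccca
Of all 100-base windows in their transcripts, 12.4% of those of Acot1 and 17.1% of those of Acot2 occur in another gene as well. Acot2 stood at 18.1, 33.7 and 30.7 CPM in Ctrl, at 11.7, 15.4 and 17.4 CPM in AngII and at 27.7, 24.2 and 8.05 CPM in Kmo_AngII. The AngII libraries all lay below the Ctrl libraries (12.2% of all genes did not overlap there, in either direction), and Kmo_AngII held both high values and the lowest of all. Acot1 stood at 2.18, 5.22 and 6.57 CPM in Ctrl, at 6.58, 3.39 and 3.29 CPM in AngII and at 5.33, 8.16 and 2.605 CPM in Kmo_AngII. Its groups overlapped, and the library order differed from that of Acot2: AngII replicate 1 was the second highest for Acot1 and the second lowest for Acot2.

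**Figure D2:**
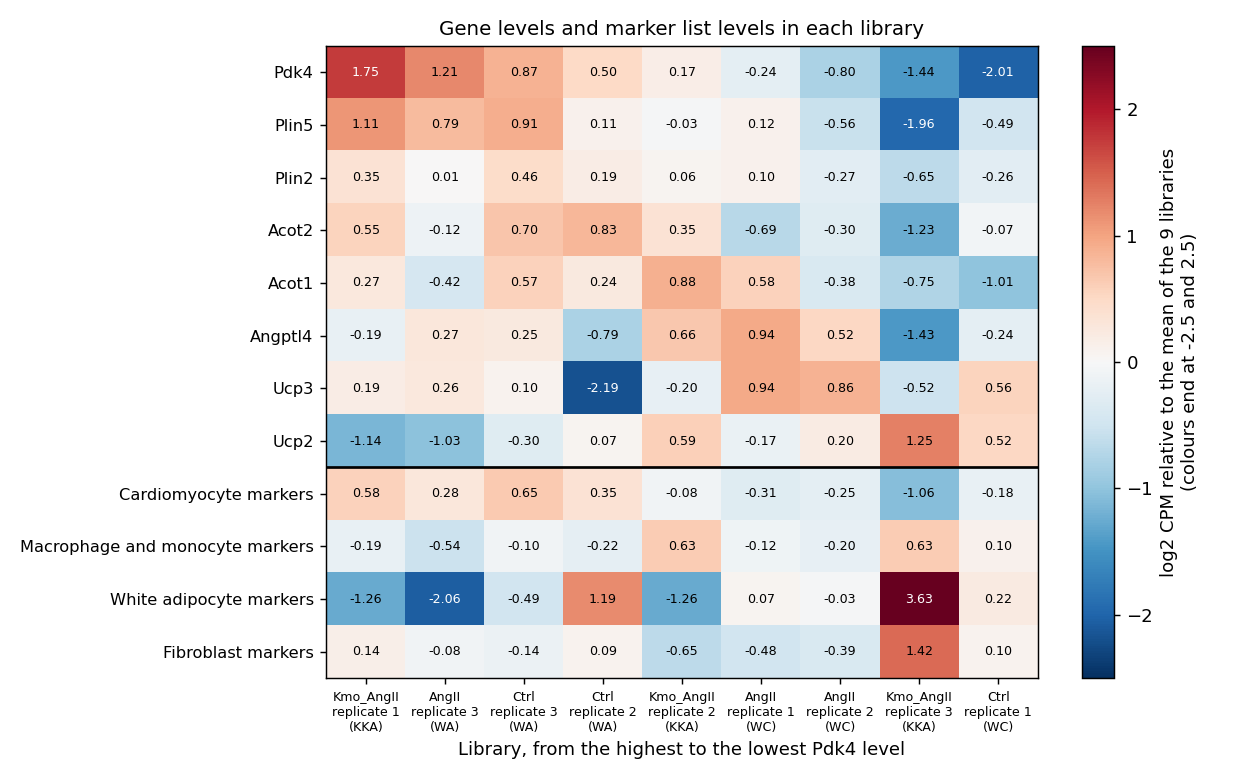
Each cell gives log2 CPM relative to the mean of the 9 libraries, for the 8 genes (rows above the line) and as the mean over 4 marker lists (below it), with libraries in columns from the highest to the lowest Pdk4. Kmo_AngII replicate 3 is the lowest column for Plin5, Plin2, Acot2 and Angptl4 and for cardiomyocyte markers (-1.06), and the highest for Ucp2.

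The first question of the design was what Ang II did to these genes. No member passed the test between AngII and Ctrl in edgeR's quasi-likelihood test of all 9 libraries, and neither did any other gene (0% of 19091 genes at an adjusted p under 0.05, and 1003 genes at an unadjusted p under 0.05). The median log2 difference of the 8 members was -0.07, beside 0.02 over all genes tested. Of the members 3 of 8 were positive, beside 52% of all genes. For 2 members the groups did not overlap, as for 12.2% of all genes. Angptl4 was at 7.20 ± 1.72 CPM in AngII and 4.11 ± 1.45 CPM in Ctrl (SD, n = 3 each), a log2 difference of 0.81 ± 0.48 (standard error). Acot2 was at 14.8 ± 2.89 CPM in AngII and 27.5 ± 8.27 CPM in Ctrl, a log2 difference of -0.89 ± 0.42. In edgeR's test both had an adjusted p of 0.890. With 3 libraries against 3 an exact two-sided permutation test cannot go below 0.1, and it gave 0.1 for both. Ucp3 had a log2 difference of 0.84 ± 0.53 with groups that overlapped through Ctrl replicate 1. It was 0.37 without Ctrl replicate 2 and 1.35 without Ctrl replicate 1. Pdk4 (0.10 ± 0.86), Plin5 (-0.07 ± 0.65), Acot1 (-0.07 ± 0.50), Plin2 (-0.20 ± 0.28) and Ucp2 (-0.39 ± 0.52) had log2 differences within 1 standard error of 0. For Pdk4 the estimate moved to 1.01 with the title letters as a covariate and lay between -0.71 and 0.59 when single libraries were left out, turning negative without AngII replicate 3 or without Ctrl replicate 1. Without TMM correction the median of all genes moved to 0.67, and Ucp2, Acot1, Plin2 and Plin5 turned positive with it, while Angptl4 moved to 1.44 and Acot2 to -0.21.

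**Figure D3:**
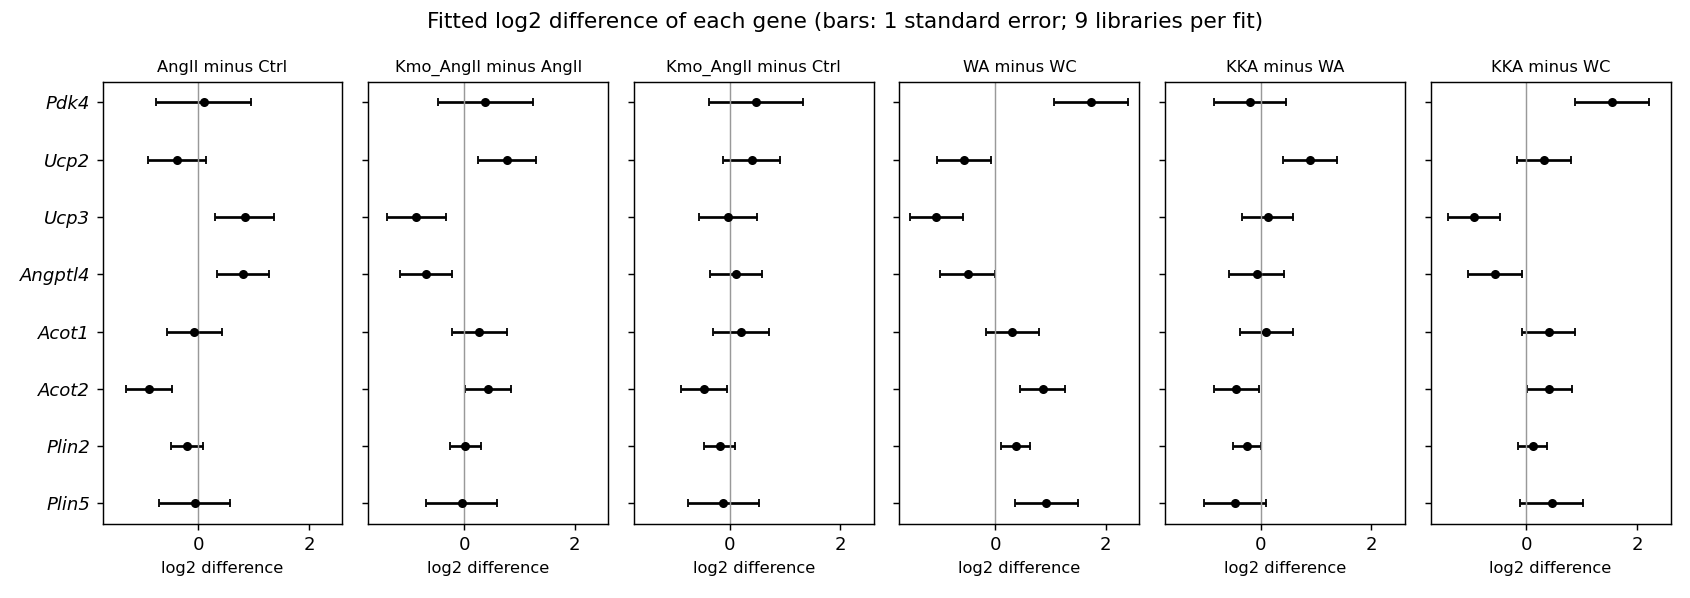
Fitted log2 difference of each gene (points) with 1 standard error (bars) in the 6 comparisons, 9 libraries per fit. Pdk4 lies at 1.73 in WA minus WC and at 0.10 in AngII minus Ctrl, and no point passed the test.

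The second question was what the Kmo label added to Ang II. Kmo_AngII and AngII share no library, but both were compared with the same Ctrl libraries, so the comparisons are not independent. No gene was called in edgeR between Kmo_AngII and AngII (0% of 19091 genes; 412 at an unadjusted p under 0.05). Only the groups of Ucp3 did not overlap among the 8 members, beside 6.17% of all genes. Ucp3 was at 12.1 ± 3.005 CPM in Kmo_AngII and 22.0 ± 5.21 CPM in AngII (SD, n = 3 each), a log2 difference of -0.86 ± 0.53 with an adjusted p of 0.9998 in edgeR and an exact permutation p of 0.1. The nearest libraries were 15.3 and 15.99 CPM. The next in size were Ucp2 with 0.78 ± 0.52 and Angptl4 with -0.69 ± 0.47, and the other 5 lay between -0.04 and 0.43. Without Kmo_AngII replicate 3 Ucp2 was at 0.22 and Angptl4 at -0.31, without Kmo_AngII replicate 2 Angptl4 was at -1.29, and without Kmo_AngII replicate 1 Ucp2 was at 1.20. Between Kmo_AngII and Ctrl no gene was called either (0%, with 533 genes at an unadjusted p under 0.05), no member had groups that did not overlap, beside 6.77% of all genes, and the member differences lay between -0.46 (Acot2) and 0.48 (Pdk4). The median log2 difference of the members was 0.15 against AngII (all genes 0.03) and 0.04 against Ctrl (all genes 0.05). DESeq2 called 2, 3 and 9 genes in these treatment comparisons, AngII minus Ctrl, Kmo_AngII minus AngII and Kmo_AngII minus Ctrl, and none was a member.

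By the letters of the titles WA and WC differed more, in the members and over all genes. In edgeR again no gene was called when all 9 libraries shared the estimate of spread (0% of 19091 genes). At an unadjusted p under 0.05 there were 3443 genes, beside 1003 between AngII and Ctrl. Pdk4 was at 108 ± 26.3 CPM in WA and 32.6 ± 17.6 CPM in WC (SD, n = 3 each), a log2 difference of 1.73 ± 0.67 with groups that did not overlap. Ucp3 was at 11.1 ± 7.11 CPM in WA and 23.2 ± 3.14 CPM in WC, a log2 difference of -1.06 ± 0.47, also without overlap, that was -0.61 without Ctrl replicate 2. Their adjusted p in edgeR was 0.243 and 0.272, and the exact permutation p was 0.1 for each. So 2 of 8 members did not overlap between WA and WC, beside 33.6% of all genes, which is no more than the background. The median of the members was 0.34, beside -0.03 over all genes. Of the members 5 of 8 were positive, beside 48.3% of all genes: Pdk4, Plin5 (0.92 ± 0.57), Acot2 (0.86 ± 0.41), Plin2 (0.37 ± 0.26) and Acot1 (0.31 ± 0.48). Ucp2 (-0.56 ± 0.49) and Angptl4 (-0.50 ± 0.49) were negative like Ucp3.

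In an alternative fit of the 6 WA and WC libraries alone, which drops the 3 widely spread KKA libraries from the estimate of spread, 3 of 8 members rose in WA by edgeR's test: Pdk4 by 1.74 ± 0.42 (adjusted p = 0.0345), Plin5 by 0.94 ± 0.24 (0.0279) and Acot2 by 0.87 ± 0.25 (0.0418). In that fit 13.3% of 18111 genes were called, 8.06% of them higher and 5.25% lower in WA, counted over all genes tested. No member was called lower there, and Ucp3 was at -1.05 ± 0.59 (adjusted p = 0.305) and Ucp2 at -0.55 ± 0.27 (0.200). In 2 other settings with many calls no member was called between WA and WC: DESeq2 on 9 libraries called 505 genes and edgeR without Kmo_AngII replicate 1 called 1576. The 3 calls ended with scaling by library size alone, which left 232 genes called, and without Ctrl replicate 3 or without AngII replicate 2, which left 524 and 459. Single calls also ended without the low-count filter (Pdk4), without Ctrl replicate 1 (Plin5 and Acot2), without Ctrl replicate 2 or AngII replicate 1 (Acot2) and without AngII replicate 3 (Pdk4 and Plin5). In these 6 libraries the 3 calls stayed with DESeq2's test, with its size factors and without mitochondrial, haemoglobin and Nppa genes. Counting the fit itself and its 12 alternatives, Pdk4 and Plin5 were each called 8 times and Acot2 6 times. Cardiomyocyte markers moved with the same split: in this fit 4 of 10 (Actn2, Pln, Mb and Myl3) rose in WA and none fell, their median log2 difference was 0.66, and their summed level was 43797 to 55612 CPM in WA and 28455 to 34736 CPM in WC. Blood cell markers differed more: 6 of 6 red blood cell markers fell in WA (median log2 difference -4.07), with sums of 116 to 490 CPM in WA and 2945 to 7332 CPM in WC, and 2 of 5 neutrophil markers (Csf3r and Cxcr2) fell, with a median of -3.19. The part of cardiomyocyte or blood cell content in the member differences was not tested. By their labels WA and WC each mix PBS and Ang II hearts, which is uncertain as said above. With the treatment label as a covariate Pdk4 and Plin5 remained called, Acot2 did not (adjusted p = 0.0682), and Ucp2 fell by 0.82 on the log2 scale in WA (adjusted p = 0.0294).

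The KKA libraries, which are the Kmo_AngII libraries, were widely spread. Pdk4 had a log2 difference of 1.54 ± 0.67 from WC, resting on Kmo_AngII replicate 1: without it the difference was 0.42. Between KKA and WC the groups of Ucp3 alone did not overlap among the members (-0.94 ± 0.47), beside 7.59% of all genes, with 0% called in edgeR and 671 at an unadjusted p under 0.05. Between KKA and WA no member had groups that did not overlap, beside 8.18% of all genes, with 0% called and 1345 at an unadjusted p under 0.05. Ucp2 had the largest log2 difference there, 0.88 ± 0.49, which was 0.32 without Kmo_AngII replicate 3. Without Kmo_AngII replicate 1, which on the first component lay with the WA libraries, that difference was 1.31 and passed edgeR's test (adjusted p = 0.0331), as did 8.66% of 19742 genes, and the macrophage markers of the 2 KKA libraries then left were the highest of the series.

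The receptors themselves are expressed at modest levels in heart. Ppara, the main fatty acid sensor of heart muscle, stood at 2.37 to 3.53 CPM in 8 libraries and at 0.947 CPM in Kmo_AngII replicate 3. Ppard (12.2 to 26.1 CPM), Pparg (7.85 to 14.5 CPM) and Rxra (18.1 to 31.1 CPM) varied less between libraries. Of 16 receptors and cofactors, none was called in any of the 6 comparisons of 9 libraries, where edgeR called 0% of all genes. In the 6 WA and WC libraries 1 of 16, the coactivator Ppargc1a, rose in WA, a share below the 8.06% of all genes. It stood at 44.3, 46.0 and 26.9 CPM in the WA libraries and at 17.7, 20.7 and 26.1 CPM in the WC libraries.

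The list of other PPAR targets held calls in both directions between WA and WC. In the fit of those 6 libraries, 13 of 32 tested rose in WA and 3 fell, with a median log2 difference of 0.74, beside the 8.06% and 5.25% of all genes. Those that rose were mostly enzymes and carriers of mitochondrial fatty acid oxidation (Cpt2, Slc25a20, Acadm, Acadl, Acadvl, Hadha, Hadhb, Decr1, Eci1, Eci2 and Etfdh) together with the fatty acid binding protein Fabp3 and the droplet protein Cidea. Those that fell were the peroxisomal enzyme Ehhadh, the fatty acid transporter Slc27a1 and the carnitine transporter Slc22a5. Cardiomyocyte markers had a median of 0.66 in the same fit, and their part in the list's values was not tested. Fabp3 stood at 1435, 1782 and 1734 CPM in WA and at 623, 673 and 460 CPM in WC. Its groups did not overlap, as for 33.6% of all genes. Cpt1a, the liver-type gate of mitochondrial fatty acid entry, went the other way without a call (-0.61 ± 0.24), and the muscle type Cpt1b had a log2 difference of 0.25 ± 0.29 in the fit of 9 libraries. In AngII minus Ctrl none of 34 was called, as for all genes (0%). The median there was -0.17, and 14 were positive, beside 52% of all genes.

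Pdk4's own target, the pyruvate dehydrogenase complex, and its other regulators formed a list of 13 genes. Between WA and WC all 13 had positive differences (median 0.83 in the 6 libraries), beside 48.3% of all genes in the fit of 9 libraries. In the 6 libraries 7 rose in WA, beside 8.06% of all genes: the complex subunits Pdha1, Pdhb, Dlat, Dld and Pdhx, the kinase Pdk1 and the pyruvate carrier subunit Mpc1. So the kinase that turns the complex off and the subunits of the complex were higher in the same libraries. Cardiomyocyte markers had a median of 0.66 in the 6 libraries, with 10 of 10 positive. Their part in these WA and WC differences was not tested. Between AngII and Ctrl the list had a median of -0.54 with 1 of 13 positive, beside 52% of all genes. None of the list was called there, as for all genes (0%). Cardiomyocyte markers had a median of -0.40 there with 1 of 10 positive, and the share of counts from mitochondrial genes was 43.4% to 52.6% in Ctrl and 30.3% to 39.5% in AngII, without overlap. Their part in the list's values was not tested. The kinase Pdk2 stood at 206, 298 and 305 CPM in Ctrl and at 123, 155 and 153 CPM in AngII. Its groups did not overlap, as for 12.2% of all genes, and its log2 difference was -0.91 ± 0.30 (adjusted p = 0.890 in edgeR).

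**Figure D4:**
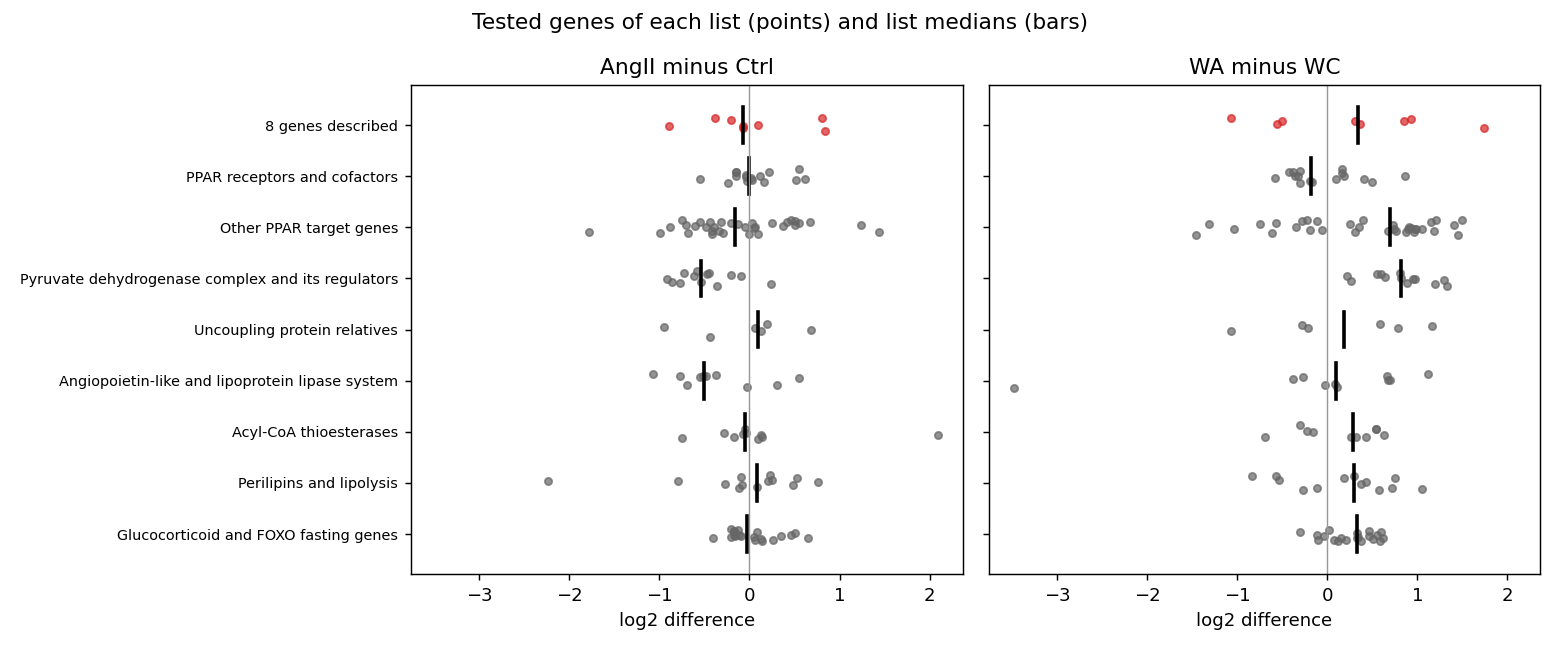
Log2 differences (horizontal axis) of the tested genes of each list (points) and list medians (vertical bars) in AngII minus Ctrl and in WA minus WC, from the fits of 9 libraries. The pyruvate dehydrogenase list lies below 0 on the left but for 1 gene (median -0.54) and above 0 on the right for all 13.

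The counts for near relatives of the members stand beside the 13.3% of all genes called in the 6 libraries. Of 10 other acyl-CoA thioesterases tested, edgeR called none between WA and WC in the 6 libraries. It called none in the 9 libraries either, as for all genes (0%), and 6 were positive, beside 48.3% of all genes. Of 13 genes of droplets and lipolysis, the triglyceride synthesis enzyme Dgat2 rose in WA in the 6 libraries and the lipases Lipe and Mgll fell. Pnpla2, the lipase that Plin5 and G0s2 hold back, stood at 159, 242 and 344 CPM in Ctrl and at 147, 137 and 144 CPM in AngII (-0.80 ± 0.39, not called). Of 9 genes tested around lipoprotein lipase and the angiopoietin-like proteins, Angptl2 alone rose in WA, and lipoprotein lipase itself had a log2 difference of 0.67 ± 0.45 in the fit of 9 libraries. Of 6 relatives of the uncoupling proteins, the adenine nucleotide carrier Slc25a5 rose and Slc25a27 fell.

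Of 20 genes that fasting drives through glucocorticoids and FOXO factors, 0 were called in the fit of the 6 WA and WC libraries, beside 13.3% of all genes. There 16 were positive and the median was 0.35, while 48.3% of all genes were positive in the fit of 9 libraries. In the 6 comparisons of 9 libraries edgeR called 0% of all genes, so the lack of calls there says nothing of this list. Fkbp5, a sensitive glucocorticoid target, stood at 5.83, 8.06 and 12.5 CPM in Ctrl and at 12.6, 14.2 and 25.1 CPM in Kmo_AngII, with a log2 difference of 0.97 ± 0.39 that was not called. Klf15, a partner of the glucocorticoid receptor in the fasting response, was lowest in Kmo_AngII replicate 2 (6.13 CPM) and highest in Kmo_AngII replicate 3 (17.96 CPM). Fkbp5 was also highest in Kmo_AngII replicate 3, where Pdk4 was the second lowest.

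The genes whose levels followed each member most closely over the 9 libraries are given as a description, by Pearson's r of log2 CPM among 11074 genes, which share libraries and their depth and the split on the first component. For Pdk4 they were Nmrk2 (0.973), P2rx5 (0.966) and Usp47 (0.961). Plin5 was followed by Tmem38a (0.995), Ech1 (0.994) and Atp5g2 (0.992), and Plin2 by Blcap (0.982), Kcnj12 (0.982) and Sdhaf1 (0.980). For Ucp2 the closest were P2ry6 (0.986) and the mitochondrial tRNA genes mt-Tk (0.976) and mt-Tv (0.972). Ucp3 was followed by Mitf (0.968), Zbtb5 (0.945) and Clcn3 (0.942), and Angptl4 by Kif26a (0.954), Nim1k (0.939) and Kcnip2 (0.939). Acot2 was followed by Xirp1 (0.970), Mrpl38 (0.969) and Dand5 (0.967), and Acot1, less closely, by Adora1 (0.940), Cnksr1 (0.937) and Tspyl4 (0.907). No member was among the 3 closest genes of another.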

How the data were processed

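RNA of 9 mouse heart samples (poly(A)-selected, paired-end, NovaSeq, per the labels' protocols) was deposited as whole-number counts per Ensembl gene, not scaled. The labels name heart as the source, but their protocol text mentions adipose. Build mm8 and the tools StringTie 1.3.0, HISAT2 2.0 and Bowtie 0.12.2 are named in the submitters' processing notes. The sources used here do not give the counting step, annotation release or use of strand. Symbols matched 55141 of 55401 genes.

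Differences were tested with edgeR 4.0.16 (R 4.3.3; quasi-likelihood, robust, TMM, filterByExpr) on all 9 libraries, by treatment label and by title letters, 6 comparisons, Benjamini-Hochberg over all 19091 genes, with an adjusted p under 0.05 as a call. A standard error is the difference divided by the square root of F. CPM use TMM library sizes. Pearson's r used log2 CPM with a prior count of 2 and genes with a mean of at least 1. Upstream stretches came from RefSeq (GRCm38.p6), coding sequences and overlaps from GENCODE, both of another build than the mm8 that the submitters name for the counts. Whether the counts are on mm8 was not tested. No 2 libraries agreed within counting noise (lowest chi-square per degree of freedom 56.6). The fits were tested on simulated counts. Replicate numbers follow sample order and pair nothing.

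The 8 members, the lists and the genes named were chosen with earlier results of these data known. Named were the members, index genes of each list, Acta1, Nppa and the 3 closest genes of each member. Other genes called in a list are named as well, chosen after their values were seen. Alternatives were DESeq2 1.42.0 (test or size factors), library size alone, no filter, fewer libraries, fewer genes and a covariate. Members had 88 to 16466 counts per library.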

Additional observations from a re-analysis of the deposited data

Results flagged for a closer look

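Acot1 had differences of opposite sign between the AngII and Ctrl labels under the 2 sets of title letters. Among WC libraries the AngII hearts (6.58 and 3.39 CPM) lay above the Ctrl heart (2.18 CPM), and among WA libraries the AngII heart (3.29 CPM) lay below the Ctrl hearts (5.22 and 6.57 CPM). The log2 difference was 1.19 ± 0.71 under WC and -0.84 ± 0.69 under WA. The difference between them was 2.03 ± 0.99, which an interaction term chosen after seeing the data did not call (edgeR, unadjusted p = 0.0716, adjusted p = 0.99998, 4 genes called of 19091). Acot1 shares coding sequence with Acot2, and each set of letters has 1 library on one side. A single library often lies outside the others of its set, and the share of all genes with such opposite differences was not counted. So the pattern does not set Acot1 apart from other genes.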

How the results depend on the processing

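No treatment comparison called a member under any setting run, and none of the values below passed a test in the comparisons of 9 libraries. When only library size was scaled for, the log2 difference changed sign in AngII minus Ctrl (Ucp2 0.25, Acot1 0.63, Plin2 0.47, Plin5 0.59), Kmo_AngII minus AngII (Acot1 -0.0095, Plin2 -0.26), Kmo_AngII minus Ctrl (Ucp3 0.25, Plin2 0.21, Plin5 0.34), WA minus WC (Acot1 -0.17), KKA minus WA (Angptl4 0.049), KKA minus WC (Plin2 -0.038) and WA minus WC in 6 libraries (Acot1 -0.17). With the title letters as a covariate it changed sign in AngII minus Ctrl (Acot1 0.17, Plin5 0.27). Without Kmo_AngII replicate 3 and Ctrl replicate 2 together, chosen after seeing the data, it changed sign in AngII minus Ctrl (Acot1 0.023), Kmo_AngII minus AngII (Plin5 0.42), Kmo_AngII minus Ctrl (Ucp2 -0.19, Acot2 0.095, Plin2 0.076, Plin5 0.28), KKA minus WA (Pdk4 0.11, Ucp3 -0.18, Angptl4 0.023, Acot2 0.10) and KKA minus WC (Ucp2 -0.24). Leaving out single libraries, the difference ran through 0 in AngII minus Ctrl (Pdk4 -0.71 to 0.59, Acot1 -0.48 to 0.26, Plin5 -0.47 to 0.39), Kmo_AngII minus AngII (Pdk4 -0.74 to 1.19, Acot1 -0.15 to 0.68, Plin2 -0.21 to 0.26, Plin5 -0.92 to 0.43), Kmo_AngII minus Ctrl (Pdk4 -0.64 to 0.97, Ucp2 -0.17 to 0.82, Ucp3 -0.49 to 0.49, Angptl4 -0.48 to 0.50, Acot1 -0.22 to 0.54, Plin2 -0.41 to 0.055, Plin5 -0.99 to 0.36), KKA minus WA (Pdk4 -1.31 to 0.28, Ucp3 -0.33 to 0.49, Angptl4 -0.68 to 0.31, Acot1 -0.34 to 0.42, Plin5 -1.34 to 0.001) and KKA minus WC (Ucp2 -0.24 to 0.75, Acot1 -0.021 to 0.95, Plin2 -0.12 to 0.35, Plin5 -0.42 to 0.93). The count of genes called by edgeR, 0 in each comparison of 9 libraries, became by DESeq2 2 (AngII minus Ctrl), 3 (Kmo_AngII minus AngII), 9 (Kmo_AngII minus Ctrl), 505 (WA minus WC), 91 (KKA minus WA) and 27 (KKA minus WC). With library size alone it was 11, 1 and 7 in the last 3, and without the filter 5, 1 and 4. Without Kmo_AngII replicate 3 and Ctrl replicate 2 it was 2, 4 and 2. With only the compared groups it was 1 in Kmo_AngII minus Ctrl and 2409 in WA minus WC. Leaving out single libraries it ran from 0 to 1 in each treatment comparison, from 0 to 1576 in WA minus WC, from 0 to 1709 in KKA minus WA (both highest without Kmo_AngII replicate 1) and from 0 to 7 in KKA minus WC. In the fit of 6 libraries, whose alternatives were chosen after seeing the data, the 2409 genes became 232 with library size alone and 459 to 2980 leaving out single libraries. The highest count of these alternatives was 3453. The causes were not tested. No paired analysis was possible because replicate numbers follow sample order. Differences well above their standard error, as for Pdk4 in WA minus WC and Pdk2 in AngII minus Ctrl, were not called in the fits of 9 libraries. So with 3 libraries a group, a lack of calls does not show that a gene did not differ.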
